A study of Mus musculus with 6 samples.

Results

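Glutathione transferases (GSTs) and UDP-glucuronosyltransferases (UGTs) were examined in mouse liver after repeated injection of small extracellular vesicles (sEVs) from a tumour cell line. The members were the array's non-control probes whose gene name begins with Gsta, Gstk, Gstm, Gsto, Gstp, Gstt, Gstz, Mgst, Ugt1a, Ugt2a, Ugt3a or Ugt2b followed by a digit. This gave 37 of the 37074 gene names on the array, 23 GST and 14 UGT genes, read by 53 of its 56605 probes. Of these, 36 genes were well above background on all 6 arrays and were tested. Gstt4, of the theta class, stayed dim on every array, never well above background, and was not tested.

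The study measured liver RNA on 6 single-colour Agilent arrays, 3 from control mice and 3 from sEV mice. All mice were of the label's Nude background, athymic animals that lack mature T cells. The sEV group received vesicles purified from SW620, a human colorectal cancer line, by tail vein in 10 injections of 20 μg over 21 days, and the control group received PBS on the same schedule. Each group held 5 mice, and the labels state for the sEV group that 3 were picked at random for the arrays. Age and sex are not given in the sources used here. Values rest on 1 liver per array. The limma p-values set the difference between groups against the spread among the 3 livers of each group. In them the variance of each gene is drawn toward that of all genes.

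GSTs join glutathione to electrophilic compounds, and UGTs join a sugar, usually glucuronic acid, to bilirubin, steroids and drugs, so that the products can be exported into bile or blood. The cytosolic GSTs fall into classes that differ in substrate, the Mgst genes encode membrane proteins of another family, and the Ugt1a genes are made by splicing alternative first exons to a common set of later exons. Liver is rich in both families, and many of the genes respond to the sensors Nrf2, AhR, CAR and PXR.

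Of the 36 tested members, 4 were higher and 2 were lower in sEV livers in limma's fit over all genes (adjusted p under 0.05), and 30 did not pass. Gstt3, Mgst2, Ugt3a1 and Ugt3a2 rose, and Gstm6 and Mgst3 fell. These are 11.1% and 5.56% of the members, where 8.82% of the 19447 genes tested were higher and 8.11% were lower, so the share of calls was near the background in both directions. At an unadjusted p under 0.05, 10 members were higher and 2 were lower, where 18.5% and 15.1% of all genes were. The 3 sEV arrays lay above the 3 control arrays for 10 members and below them for 2, against 22.2% and 18.6% of all genes tested. The log2 fold change, sEV minus control, was above 0 for 29 members and below 0 for 7. The share of all genes above 0 was not computed, and several of the 29 turned below 0 under quantile normalization. The median log2 fold change was 0.13 over the members and 0.02 over all genes tested.

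By family, the median log2 fold change was 0.16 over 22 tested GST genes (2 higher, 2 lower; 7 and 2 at an unadjusted p under 0.05 in limma) and 0.06 over 14 UGT genes (2 higher, 0 lower; 3 and 0 at that unadjusted p). The GST median was 0.04 under quantile normalization and in the authors' value table, and 0.08 without control 1. The UGT median was -0.01 under both of those scalings, 0.011 under median scaling, 0.024 without control 1, 0.014 without sEV 2 and 0.12 without sEV 3. When arrays were scaled to their median, the share of all calls that were higher moved from 52.1% to 40.5%, and the calls of Ugt3a1 and Mgst3 ended. The call of Gstm6 ended under quantile normalization and in the authors' value table, and without the filter on dim probes only Gstt3 was called. The slide had its control arrays and sEV 1 in row 1, with sEV 2 and sEV 3 in row 2. In a fit blocked by slide row, 1 member was higher and 0 were lower, where 1.25% and 2.45% of all genes were called, and 4 and 0 members had an unadjusted p under 0.05 in that limma fit, where 11.2% and 11.5% of all genes did. This blocked value rests on sEV 1 against the controls of the same row.

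**Figure D1:**
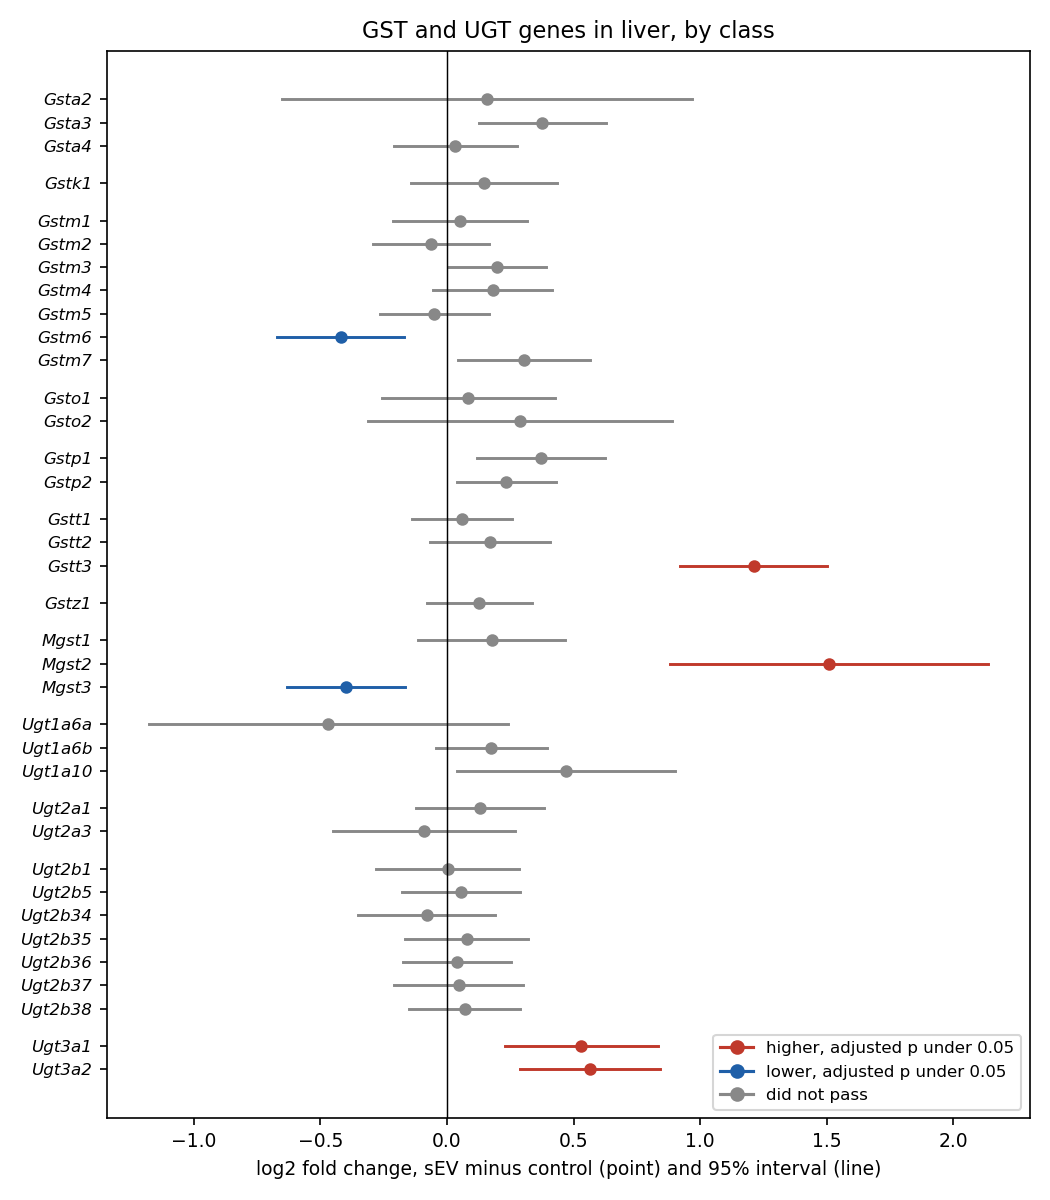
Log2 fold change, sEV minus control, of the 36 tested GST and UGT genes, grouped by class (points), with the 95% interval of the limma fit (lines), 3 livers per group. The 4 genes that rose are Gstt3, Mgst2, Ugt3a1 and Ugt3a2, and the 2 that fell are Gstm6 and Mgst3; the 7 Ugt2b genes lie close to 0.

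In the arrays as a whole, the processed signal had a 75th percentile of 440 to 506 intensity units in controls and of 402 to 424 in sEV livers, and 50.9% to 54.7% and 49.9% to 53.3% of probes were well above background. Hepatocyte markers were high on every array, with Alb, the serum albumin gene, at 9.47 ± 0.09 and 9.61 ± 0.26 (SD, n = 3 each). The marker counts that follow stand against 8.82% of all genes tested that were higher and 8.11% that were lower. Of 11 hepatocyte markers 5 rose and 0 fell. Their summed linear level, relative to the 75th percentile, was 3908 to 4272 in controls and 4563 to 5253 in sEV livers. Kupffer cell markers (4 of 9 rose) summed to 90.6 to 120 and 128 to 140, and neutrophil-lineage markers (5 of 10 rose) to 29.0 to 51.5 and 79.4 to 134. Stellate cell markers (5 of 10 fell) summed to 80.9 to 114 and 59.3 to 82.3. Of the erythroid markers 4 of 7 fell, summing to 582 to 633 in controls and 198 to 649 in sEV livers, and of the cholangiocyte markers 1 of 8 fell. Of 10 endothelial markers 0 passed in limma, and 2 were lower at an unadjusted p under 0.05, where 15.1% of all genes were. In the fit blocked by slide row 2 hepatocyte markers were still higher and 1 erythroid marker lower. In that limma fit 0 of the Kupffer cell, neutrophil-lineage, stellate cell and cholangiocyte markers passed. Of all genes, 1.25% were higher and 2.45% lower there, and in lists this short 0 calls is near that share. The part of the marker shifts in the changes of the members was not tested.

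The theta-class GSTs act on small halogenated compounds and organic hydroperoxides. Gstt3 showed the smallest adjusted p of the family. Its signal, on a log2 scale relative to each array's 75th percentile, was 4.76, 4.99 and 5.03 in the control livers and 6.23, 6.22 and 5.96 in the sEV livers. Every sEV liver stood above every control liver by a wide margin. The log2 fold change was 1.21 ± 0.12 (SE, n = 3 per group), a 2.32-fold rise, with a limma adjusted p of 0.00342. In whole liver, a change in the number of cells of a type and a change in RNA per cell cannot be told apart. The call was kept in all 18 alternative analyses, over which the log2 fold change was 1.13 to 1.30. Blocked by slide row it was 1.30 (limma adjusted p = 0.0276). The fit within row 1 gives the same estimate by construction, and there sEV 1 stands alone and is assumed to vary as the controls do (adjusted p = 0.0327, where 0.895% of all genes were higher).

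The Gstt3 probe lies at chr10:75236966-75237025 on the minus strand (mm9, per the file header). The Gstt1, Gstt2 and Gstt4 probes lie on the same strand of the same chromosome nearby, and of these neighbours Gstt1 and Gstt2 were tested and did not pass. Gstt1 was at 6.96, 7.06 and 7.09 in controls and 7.16, 7.08 and 7.04 in sEV livers, groups that overlap, with a log2 fold change of 0.06 and a 95% interval of -0.14 to 0.26. Gstt2 was at 3.57, 3.69 and 3.44 in controls and 3.75, 3.81 and 3.65 in sEV livers, also overlapping (log2 fold change 0.17, 95% interval -0.07 to 0.41). A second, dimmer Gstt2 probe, with no call either, gave -0.37.

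Because probes of the same array share its scaling, the difference between Gstt3 and Gstt1 was also taken array by array. It moved from -2.11 ± 0.08 (SD, n = 3) in controls to -0.96 ± 0.11 in sEV livers, a shift of 1.15. Gstt3 minus Gstt2 moved by 1.04, from 1.36 ± 0.21 to 2.40 ± 0.09. The groups did not overlap in either difference, and the exact two-sided permutation test gave p = 0.1, the smallest that 3 against 3 allows (0.114 after Benjamini-Hochberg adjustment over the 8 differences computed). Only the shift is read here, since the level of a probe against another probe depends on the probes.

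**Figure D2:**
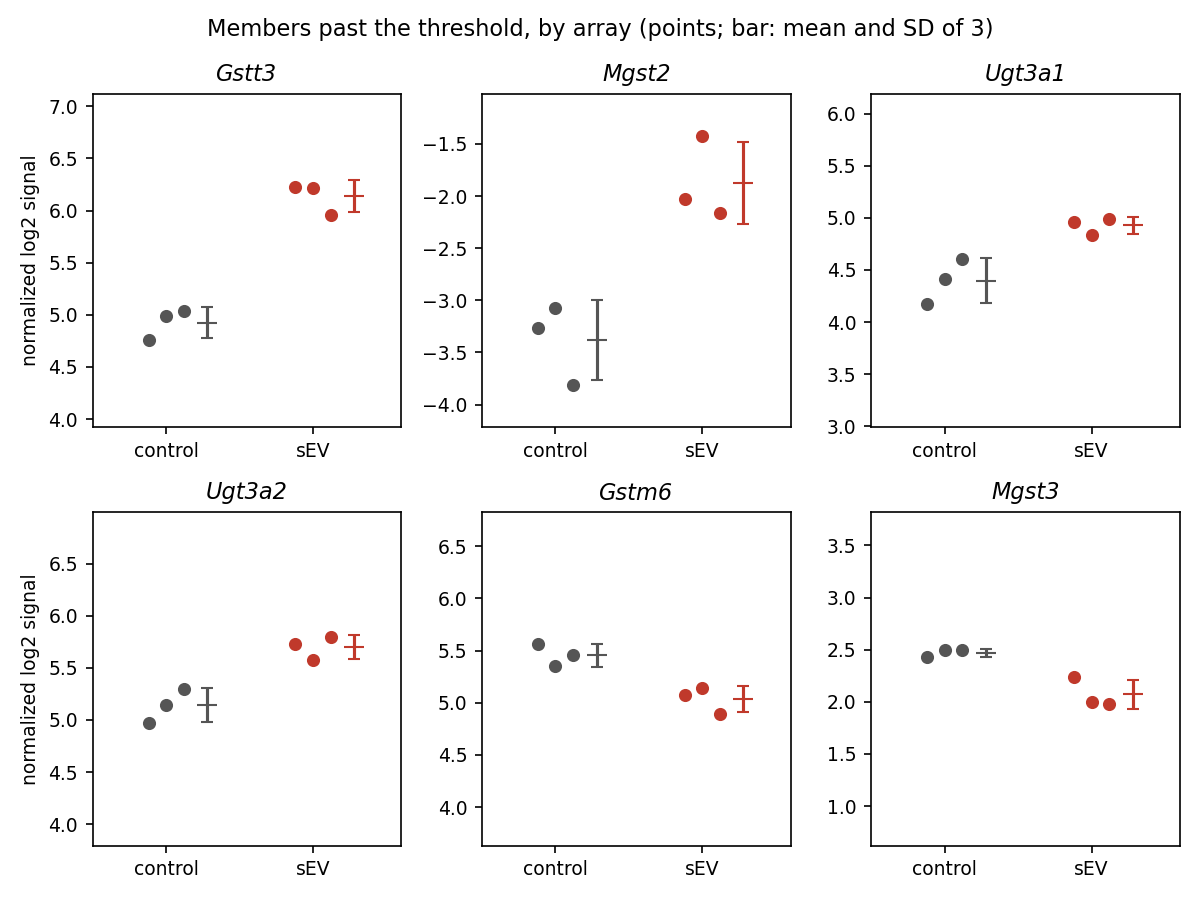
Normalized log2 signal (relative to each array's 75th percentile) of the 6 members past the threshold, by array. Points are livers, and the bar beside them is the mean and SD of 3; the axis of every panel covers the same number of log2 units. Gstt3 and Mgst2 show the wide gaps, and Ugt3a1, Ugt3a2, Gstm6 and Mgst3 the narrow ones.

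The 250 bases before the Gstt3 start site are shown because this member kept its call in all 18 alternatives (RefSeq, GRCm38.p6, chr10:75781423-75781672, minus strand, printed 5′ to 3′).
Gstt3 promoter: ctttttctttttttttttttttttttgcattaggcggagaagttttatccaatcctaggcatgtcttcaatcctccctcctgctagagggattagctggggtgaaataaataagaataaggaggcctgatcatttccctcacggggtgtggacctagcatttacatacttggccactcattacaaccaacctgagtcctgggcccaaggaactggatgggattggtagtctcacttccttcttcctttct
Neither letter pattern searched, the antioxidant response element core TGACNNNGC nor the xenobiotic response element core GCGTG, occurs in this window on either strand. RefSeq promoters of 300 bases were found for 33 member genes, 42 promoters in all. TGACNNNGC was in 4 of the 42 (9.52%) and in 12.4% of all 32851 promoters in the table. The 4 belong to Gsta3 (TGACATTGC at position -121 from the start site), Gstm7 (TGACAAAGC at -129), Gstm5 (TGACCACGC at -42) and Mgst1 (GCACGGTCA, from the other strand, at -56). GCGTG was in 6 of the 42 (14.3%), those of Gsta2, Gstm1, Gstm5, Gstp1 and Mgst3, and in 32.4% of all. In Gstm5 a match of each pattern overlaps the other. A match is a run of letters and not a measured site.

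The Mgst genes encode membrane proteins, some of which also act in leukotriene synthesis or reduce lipid hydroperoxides. Mgst2, which can make leukotriene C4, was at -3.26, -3.07 and -3.81 in control livers and at -2.03, -1.42 and -2.17 in sEV livers. All 3 sEV livers were above all controls, although the probe was dim, below the 75th percentile on every array. The log2 fold change was 1.51 ± 0.26 (SE, n = 3 per group), a 2.84-fold rise with a limma adjusted p of 0.0166. Under normexp background correction, which acts most on dim probes, it was 0.83 (adjusted p = 0.00790). The call ended without control 1 (1.57, adjusted p = 0.0518) and in the fit blocked by slide row (1.35, adjusted p = 0.129).

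Mgst3, a membrane glutathione peroxidase, was at 2.43, 2.49 and 2.49 in control livers and at 2.23, 2.002 and 1.98 in sEV livers. The sEV livers lay below the controls, sEV 1 nearest to them. It fell by 0.40 ± 0.10 on the log2 scale (SE, n = 3 per group; limma adjusted p = 0.0395), which is 1.32-fold. Blocked by slide row, which rests on sEV 1, the log2 fold change was -0.24 (adjusted p = 0.270). Without sEV 1 it was -0.48 (adjusted p = 0.0274), and leaving out any other single array ended the call (adjusted p 0.0901 to 0.115). A second Mgst3 probe stayed near background throughout.

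Mgst1, an abundant enzyme of the hepatocyte's endoplasmic reticulum and mitochondria, was at 8.61, 8.75 and 8.72 in controls and at 8.65, 9.04 and 8.93 in sEV livers. The groups overlapped (log2 fold change 0.18, 95% interval -0.11 to 0.47). A second, dimmer probe gave 0.18 as well, without overlap (limma adjusted p = 0.200 in the fit of every probe). The direction of the brighter probe was not stable, with -0.08 under quantile normalization and -0.05 in the fit blocked by slide row. Within arrays, Mgst2 minus Mgst1 shifted by 1.33 and Mgst3 minus Mgst1 by -0.57, both without overlap between the groups (exact two-sided permutation p = 0.1 each).

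The probes that read these genes are given where the array file places them, at chr3:51486449-51486508 for Mgst2 and chr1:169303928-169303987 for the measured Mgst3 probe (mm9). Each is 60 bases, printed 5′ to 3′ in lower case.
Mgst2: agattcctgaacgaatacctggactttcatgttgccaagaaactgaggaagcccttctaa
Mgst3: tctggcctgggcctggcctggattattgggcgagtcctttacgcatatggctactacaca

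The Ugt3a enzymes form a small branch of the UGT family that takes sugar donors other than UDP-glucuronic acid. Both members rose. Ugt3a2 was at 4.97, 5.14 and 5.30 in control livers and at 5.73, 5.58 and 5.80 in sEV livers. Ugt3a1 was at 4.18, 4.41 and 4.60 and at 4.96, 4.84 and 4.99. For each gene the sEV livers lay above the controls, and control 1 was the lowest liver. Ugt3a2 rose by 0.56 ± 0.11 (SE, n = 3 per group), 1.48-fold, with a limma adjusted p of 0.0245. Ugt3a1 rose by 0.53 ± 0.13, 1.44-fold, with a limma adjusted p of 0.0365.

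The rise of Ugt3a2 was read by a second probe, whose sequence spans a splice junction, at 0.58 ± 0.13 (adjusted p = 0.0322 in a limma fit of every probe, where 7.45% of 28766 probes were higher and 6.7% lower). The remaining probe stayed near background throughout. Within arrays, Ugt3a2 minus Ugt3a1 was 0.74 ± 0.05 (SD, n = 3) in controls and 0.78 ± 0.03 in sEV livers, overlapping groups that shifted by 0.03 (exact two-sided permutation p = 0.4). Ugt3a2 minus Ugt2b38 shifted by 0.49 with no overlap (exact two-sided permutation p = 0.1). Both genes lie on chromosome 15, the Ugt3a1 probe at chr15:9244274-9244333 and the brightest Ugt3a2 probe at chr15:9300203-9300262 (mm9, plus strand).
The junction probe of Ugt3a2 is shown because it gave the same rise from another stretch of the transcript.
Ugt3a2 junction probe: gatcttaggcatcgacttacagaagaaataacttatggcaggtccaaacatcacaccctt
Blocked by slide row the log2 fold changes were 0.59 for Ugt3a2 (adjusted p = 0.134) and 0.56 for Ugt3a1 (adjusted p = 0.170), so the calls did not hold. These values rest on sEV 1 against the same controls. Their like size shows only that sEV 1 lies near the sEV mean. Without 1 array, the calls ended for Ugt3a2 when control 1, control 2, sEV 1 or sEV 3 was left out (limma adjusted p 0.0546 to 0.0742) and for Ugt3a1 when any array but control 3 was left out (0.0705 to 0.103). The call of Ugt3a1 also ended under median scaling (0.48, adjusted p = 0.0700).

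**Figure D3:**
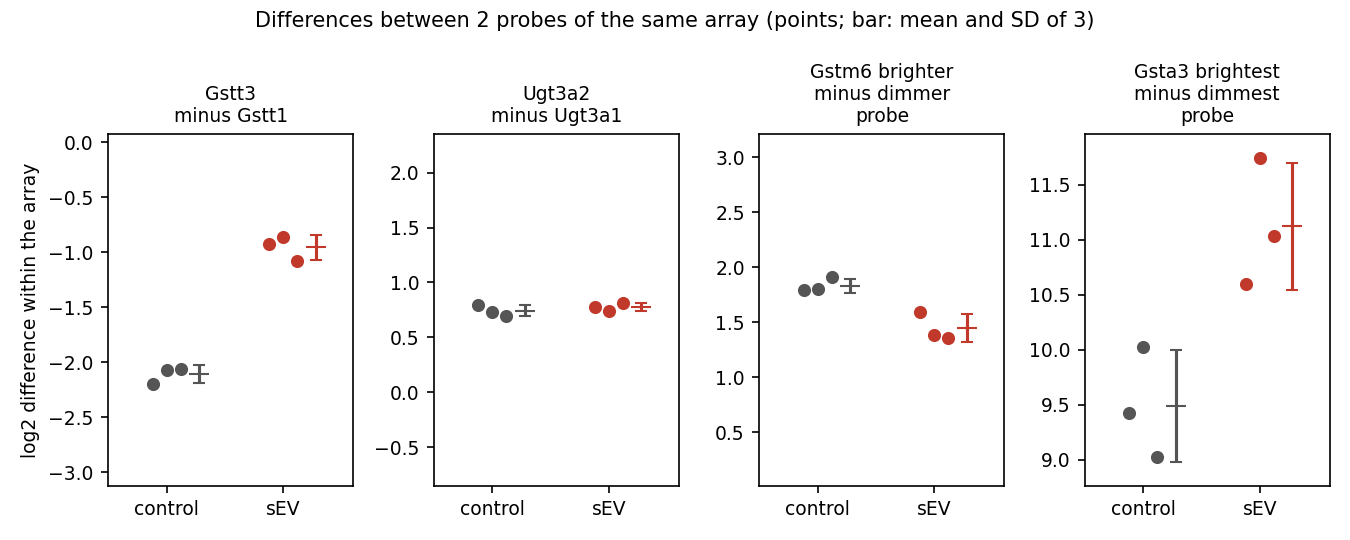
Difference in log2 signal between 2 probes of the same array, in control and sEV livers (points; the bar is the mean and SD of 3). The axis of every panel covers the same number of log2 units. Gstt3 minus Gstt1 shifts by 1.15 and Ugt3a2 minus Ugt3a1 by 0.03; the probes of Gstm6 and of Gsta3 shift against each other by -0.39 and 1.64.

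The Ugt2b genes encode the main steroid and bile acid glucuronosyltransferases of the liver. Of 7 tested members 0 passed in limma, and 0 had an unadjusted p under 0.05. Of all genes, 18.5% were higher and 15.1% lower at that unadjusted p. Their log2 fold changes lay between -0.08 and 0.08, and their 95% intervals between -0.35 and 0.32. Ugt2b34, with the largest size of change, was at 5.54, 5.59 and 5.75 in controls and at 5.58, 5.69 and 5.38 in sEV livers. The livers of the groups are interleaved (log2 fold change -0.08 ± 0.11). The other values were 0.08 for Ugt2b35, 0.07 for Ugt2b38, 0.06 for Ugt2b5, 0.05 for Ugt2b37, 0.04 for Ugt2b36 and 0.00 for Ugt2b1. Under median scaling Ugt2b1, Ugt2b36 and Ugt2b37 turned below 0.

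Several Ugt2b probes may read close relatives. The Ugt2b36 probe lists Ugt2b37 as well. The Ugt2b37 and Ugt2b5 probes share 46 of 55 overlapping bases (83.6%), and the 30 bases below differ at 3 positions, in capitals. They are shown because probes this alike can take signal from each other's transcripts, which was not tested. Their log2 fold changes differ by less than their standard errors. That closeness cannot bear on shared signal, since all tested Ugt2b genes lay between -0.08 and 0.08.
Ugt2b37: gaaTGaactttcagcctcattctAatttat
Ugt2b5: gaaCAaactttcagcctcattctTatttat

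Ugt2a1, an enzyme of the olfactory epithelium whose probe also lists Ugt2a2, was at 0.87, 1.11 and 0.92 in controls and at 1.22, 1.09 and 0.98 in sEV livers. These overlap, with a log2 fold change of 0.13 ± 0.11 (95% interval -0.12 to 0.38). Ugt2a3 was at -0.09 (95% interval -0.45 to 0.27) and turned to 0.08 in the fit blocked by slide row.

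The Ugt1a complex conjugates bilirubin and phenols, and its probes fall into upstream ones, in the region of the alternative first exons, and those farther downstream. Ugt1a10, whose probe at chr1:89952780-89952839 (mm9) also lists Ugt1a9, was at 0.27, 0.80 and 0.63 in controls and 0.76, 1.19 and 1.16 in sEV livers. Only sEV 1 lay within the control range. The log2 fold change was 0.47 ± 0.18 (limma adjusted p = 0.124; 95% interval 0.04 to 0.90). With the replicate number as a block its adjusted p was 0.0438, and in the fit blocked by slide row the value was 0.19 (0.645). Ugt1a6a was at -2.89, -3.64 and -2.92 in controls and -3.21, -4.11 and -3.54 in sEV livers, overlapping groups (log2 fold change -0.47 ± 0.29, 95% interval -1.18 to 0.24). Its probe at chr1:90116514-90116573 lists 4 genes of the complex, so the value cannot be assigned to Ugt1a6a alone.

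Ugt1a6b has 3 probes. The brightest, at chr1:90115493-90115552, lists Ugt1a10, Ugt1a6a, Ugt1a6b and Ugt1a7c, and stood at 7.79, 7.91 and 7.81 in controls and 8.12, 8.01 and 7.91 in sEV livers, which just overlap (log2 fold change 0.17, limma adjusted p = 0.231). The probe far upstream, at chr1:90004249-90004308, gave 1.46, 1.43 and 1.50 and 1.72, 1.75 and 1.69. These groups do not overlap and are tight, with a log2 fold change of 0.26 ± 0.08 that did not pass (adjusted p = 0.0770 in the fit of every probe). The remaining probe lies downstream at chr1:90114900-90114959, near the brightest one. Only Ugt1a6b is listed for it, but it may read the common later exons, so its value cannot be assigned to Ugt1a6b alone. It gave 6.48, 6.58 and 6.46 and 6.85, 6.61 and 6.65. These groups do not overlap, by a narrow margin (log2 fold change 0.19 ± 0.10, adjusted p = 0.233 in that limma fit). The upstream probes of Ugt1a10 and Ugt1a6b, aligned over 54 bases, match at 32 (59.3%), with the differing bases in capitals. They are shown with this downstream Ugt1a6b probe because they read the complex at places far apart.
Ugt1a10: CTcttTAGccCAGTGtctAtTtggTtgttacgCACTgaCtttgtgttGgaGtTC
Ugt1a6b: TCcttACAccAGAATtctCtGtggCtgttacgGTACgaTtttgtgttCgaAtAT
Ugt1a6b, downstream: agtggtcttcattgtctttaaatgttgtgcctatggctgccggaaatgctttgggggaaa

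The mu-class GSTs act on epoxides and quinones and are encoded in a cluster on chromosome 3. Of 7 tested genes 1 fell, Gstm6. Its brighter probe was at 5.56, 5.35 and 5.46 in control livers and at 5.07, 5.14 and 4.89 in sEV livers. The groups did not overlap. It fell by 0.42 ± 0.10 on the log2 scale (SE, n = 3 per group), 1.34-fold, with a limma adjusted p of 0.0412. The other probe of Gstm6, which crosses an intron, was at 3.78, 3.55 and 3.55 and at 3.48, 3.75 and 3.53, with a log2 fold change of -0.03 (adjusted p = 0.867 in the fit of every probe). The probes thus disagreed, and their difference within arrays shifted by -0.39 without overlap (exact two-sided permutation p = 0.1). Leaving out any single array ended the call (limma adjusted p 0.0679 to 0.116), as did slide row as a block (-0.38, adjusted p = 0.227).
The probe that did not show the fall is given as the array's sequence, and the probe that did lies at chr3:107741766-107741825 (mm9).
Gstm6, junction probe: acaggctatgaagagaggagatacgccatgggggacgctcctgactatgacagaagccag

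Gstm7, the largest change of the class that did not pass, was at 1.88, 1.82 and 1.67 in controls and 1.96, 2.08 and 2.24 in sEV livers. Its groups did not overlap (log2 fold change 0.30 ± 0.11, limma adjusted p = 0.105), and a second, dim probe gave 0.30. Gstm3, also without overlap, was at 8.03, 7.91 and 7.95 and at 8.20, 8.18 and 8.10 (0.20, limma adjusted p = 0.136), but its direction turned under quantile normalization (-0.05). Gstm4 was at 0.18, Gstm5 at -0.05 and Gstm2 at -0.06. Gstm1 was at 0.05 by its brighter probe, which the file places on chromosome 5 and not in the cluster on chromosome 3, and at 0.17 by the probe in the cluster. The brighter value was -0.19 under quantile normalization.

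The alpha-class GSTs reduce lipid hydroperoxides, and Gsta3 is known in mouse liver for conjugating the epoxide of aflatoxin. Its brightest probe was at 8.48, 8.52 and 8.63 in controls and at 8.80, 9.08 and 8.88 in sEV livers, without overlap. The log2 fold change of 0.38 ± 0.10 did not pass (limma adjusted p = 0.0540), and in the fit blocked by slide row it was 0.25 (0.340). It passed under normexp correction, with a trended and robust variance prior, with array weights and among genes bright on all arrays (adjusted p 0.0244 to 0.0458). A neighbouring probe gave 0.44 and passed in the fit of every probe (adjusted p = 0.0328). The remaining Gsta3 probe, which lists no RefSeq transcript and lies upstream at chr1:21246334-21246393 (mm9), moved the other way. It was at -0.94, -1.50 and -0.39 in controls and at -1.80, -2.66 and -2.15 in sEV livers, with no overlap and a log2 fold change of -1.26 ± 0.33 (adjusted p = 0.0519 in that fit). The brightest and dimmest Gsta3 probes shifted against each other by 1.64 (exact two-sided permutation p = 0.1).

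Gsta2, an enzyme that responds to dietary inducers, was at 0.16 with a wide interval (-0.65 to 0.97). Its livers scattered within both groups, from 0.42 to 1.18 in controls and from 0.37 to 1.47 in sEV livers. Gsta4, which acts on the lipid aldehyde 4-hydroxynonenal, was at 0.03 (95% interval -0.21 to 0.27).

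The pi class, which binds the stress kinase JNK besides conjugating electrophiles, was read by probes named for 2 genes. Gstp1 was at 4.28, 4.03 and 4.12 in controls and at 4.39, 4.55 and 4.61 in sEV livers, without overlap. Its log2 fold change of 0.37 ± 0.11 did not pass (limma adjusted p = 0.0594), and it passed under the same alternatives as Gsta3 (adjusted p 0.0256 to 0.0478). Its probe lists both Gstp1 and Gstp2 and so cannot separate them. Gstp2 was at 7.56, 7.44 and 7.48 and at 7.73, 7.79 and 7.67, also without overlap (0.23 ± 0.08, limma adjusted p = 0.0975). Blocked by slide row the values were 0.25 and 0.24.
Gstp1 probe, shared with Gstp2: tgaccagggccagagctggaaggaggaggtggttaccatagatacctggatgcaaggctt

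**Figure D4:**
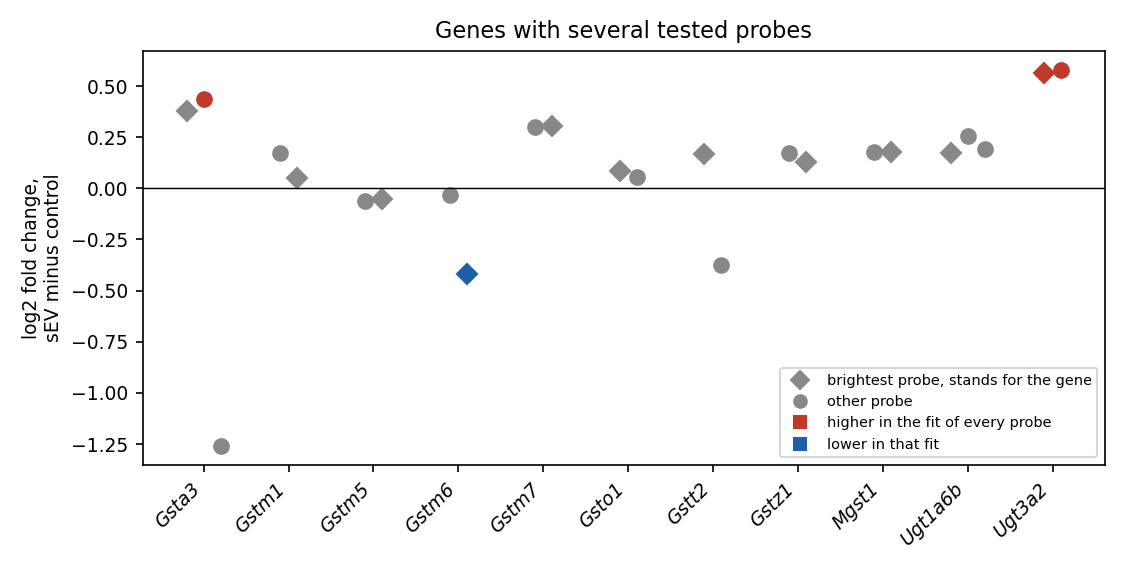
Log2 fold change, sEV minus control, of each tested probe of the 11 member genes with several tested probes. Diamonds are the brightest probe, which stands for the gene, and colour marks probes past an adjusted p of 0.05 in the fit of every probe. The probes of Gsta3, Gstm6 and Gstt2 disagree, and those of Ugt3a2, Gstm7, Gstz1 and Mgst1 lie close together.

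The single-gene and small classes showed small differences. Gstz1, maleylacetoacetate isomerase of tyrosine breakdown, was at 7.09, 7.27 and 7.27 in controls and at 7.35, 7.31 and 7.36 in sEV livers. The groups did not overlap, by a narrow margin (log2 fold change 0.13 ± 0.09, limma adjusted p = 0.343), and the value was -0.06 under quantile normalization. Gstk1, an enzyme of mitochondria and peroxisomes, was at 5.44, 5.83 and 5.70 and at 5.88, 5.77 and 5.76, which overlap (0.15 ± 0.12, 95% interval -0.14 to 0.43). Gsto2, a dehydroascorbate reductase, was at -2.98, -2.06 and -2.22 and at -2.32, -2.10 and -1.98, overlapping groups with control 1 apart (0.29 ± 0.25, 95% interval -0.31 to 0.89). Gsto1 was at 0.08 (95% interval -0.26 to 0.43).

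Other genes of the pathway were taken from 7 lists. Over these, 94 genes were tested, of which 14 rose (14.9%), 8 fell (8.51%) and 72 did not pass in limma. Of all genes tested, 8.82% were higher and 8.11% lower, so the share that fell was near the background. The share that rose was larger, but the lists were chosen with earlier results of these data known, so it is not read as a result. Blocked by slide row 1 was higher and 2 were lower, where 1.25% and 2.45% of all genes were called. The counts of each list below are to be read against the same shares of all genes.

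Of 14 tested genes of glutathione synthesis and recycling 4 rose and 2 fell, with a median log2 fold change of 0.13. Cth, cystathionine gamma-lyase, which makes cysteine for glutathione, was at 5.31, 5.62 and 5.60 in controls and at 6.69, 6.56 and 6.62 in sEV livers. The groups were far apart, and Cth rose by 1.11 ± 0.11 (limma adjusted p = 0.00342; 1.18, adjusted p = 0.0292, in the fit blocked by slide row). Ggt6, a gamma-glutamyltransferase relative, rose by 0.89 ± 0.13 (limma adjusted p = 0.0112) and Chac1, which breaks down glutathione, by 1.07 ± 0.22 (limma adjusted p = 0.0250). Ggct, gamma-glutamylcyclotransferase, fell by 0.58 ± 0.10 (limma adjusted p = 0.0162). Each of the last 3 lost its call under the row block.

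Of 10 genes that supply or release glucuronic acid 2 rose and 0 fell, with a median of 0.07. Ugdh, which oxidises UDP-glucose to the donor UDP-glucuronic acid, was at 3.70, 3.78 and 3.90 in controls and at 4.19, 4.32 and 4.33 in sEV livers. The groups did not overlap, and Ugdh rose by 0.49 ± 0.09 (limma adjusted p = 0.0204). Gusb, the lysosomal beta-glucuronidase that removes glucuronic acid, rose by 0.70 ± 0.08 (limma adjusted p = 0.00516). Blocked by slide row the values were 0.40 (adjusted p = 0.154) and 0.62 (0.0525). Slc35b1, a nucleotide transporter of the endoplasmic reticulum, had the lowest value, -0.37 ± 0.14 (limma adjusted p = 0.117).

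Of 9 genes that process the conjugates to mercapturates 0 passed in limma, with a median of 0.12. At an unadjusted p under 0.05 in limma 2 were higher and 1 lower, where 18.5% and 15.1% of all genes were. The values lay between Nat8, the acetyltransferase of the last step, at 0.37 ± 0.34 and Acy3, an aminoacylase, at -0.23 ± 0.07. Of 10 export pumps 1 rose, Abcb1b, a multidrug efflux pump, by 0.68 ± 0.12 (limma adjusted p = 0.0161) from a dim level. Its call ended in the fit blocked by slide row (0.73, limma adjusted p = 0.0923). Abcc2, the canalicular pump for glutathione and glucuronide conjugates, was at 0.07 ± 0.11, and Abcc3, its basolateral counterpart, at 0.43 ± 0.15 (limma adjusted p = 0.0990). Abcb1a was at 0.54 ± 0.16 (limma adjusted p = 0.0713), and Abcc6 had the lowest value of the list, -0.22 ± 0.09 (limma adjusted p = 0.134).

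Of 18 regulators 4 rose and 2 fell. Cebpb, a factor of the acute phase response, rose by 0.68 ± 0.09 (limma adjusted p = 0.00890) and Hnf4a, the hepatocyte nuclear receptor, by 0.53 ± 0.10 (0.0201). Nfe2l2, which encodes Nrf2, fell by 0.64 ± 0.11 (limma adjusted p = 0.0143), at 2.996, 2.98 and 3.12 in controls and 2.45, 2.51 and 2.21 in sEV livers. Ppara, the receptor for fatty acids, fell by 0.59 ± 0.10 (limma adjusted p = 0.0167). None of these 4 calls held in the fit blocked by slide row (limma adjusted p 0.0633 to 0.114). Of the other sensors named above, Nr1i2 (PXR) rose by 0.41 ± 0.11 (limma adjusted p = 0.0492), a call that the row block ended (0.58, adjusted p = 0.0860). Nr1i3 (CAR) was at 0.42 ± 0.12 (limma adjusted p = 0.0670) and Ahr at -0.23 ± 0.14 (0.284), and neither passed.

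Of 15 antioxidant response genes outside the family 1 rose and 3 fell, with a median of -0.04. Ptgr1, prostaglandin reductase, fell by 0.79 ± 0.13 (limma adjusted p = 0.0138), Akr1b8, an aldo-keto reductase, by 0.76 ± 0.15 (0.0233) and Ephx1, microsomal epoxide hydrolase, by 0.45 ± 0.11 (0.0365), while G6pdx, which supplies NADPH, rose by 0.44 ± 0.11 (0.0452). Blocked by slide row Akr1b8 kept its call (-1.02, limma adjusted p = 0.0433), and Ptgr1, Ephx1 and G6pdx lost theirs (0.103 to 0.184). Of 18 other glutathione-dependent enzymes 2 rose and 1 fell. Gpx7, a peroxidase of the endoplasmic reticulum, fell by 1.39 ± 0.10 (limma adjusted p = 0.00113; -1.50, adjusted p = 0.0113, in the fit blocked by slide row). Gpx3, the plasma glutathione peroxidase, rose by 1.61 ± 0.23 (limma adjusted p = 0.00916), and Gpx4, which reduces membrane lipid hydroperoxides, by 0.36 ± 0.08 (0.0327). Both of these lost their calls under the row block (limma adjusted p 0.0773 and 0.126).

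**Figure D5:**
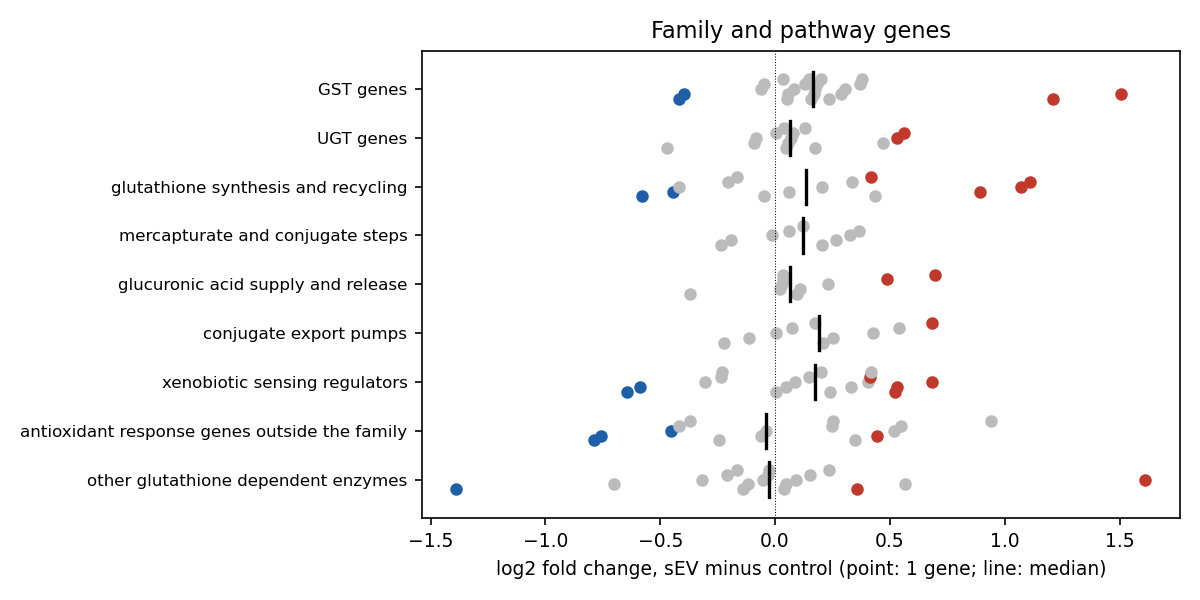
Log2 fold change, sEV minus control, of each tested GST and UGT gene and of each gene in the 7 pathway lists (points), with the median of each group (black line). Red and blue points passed an adjusted p of 0.05 upward and downward, and grey points did not pass. The medians lie between -0.04 for antioxidant response genes and 0.19 for export pumps.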

How the data were processed

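Per the labels' protocols, each array took the Cy3-labelled RNA of 1 liver. The submitters' processing notes name Agilent Feature Extraction 10.7.1.1. Each deposited scanner file holds the processed intensity of every spot, which per the file headers is background-subtracted and not scaled between arrays. The authors' value table holds log2 values, whose scaling and centring the sources used here do not give. Its columns share a median of 4.51 and correlate with the scanner values (r at least 0.9995 across probes).

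The members, gene lists and alternatives were chosen with earlier results of these data known. Control and outlier spots were left out, log2 intensity was set relative to the array's 75th percentile, probes had to be well above background on 3 or more of the 6 arrays, and the brightest probe stood for its gene name. The comparison of sEV with control used limma 3.58.1 (R 4.3.3; eBayes, without covariates, Benjamini-Hochberg over 19447 genes, threshold 0.05, 95% intervals). The script was tested on simulated data. Every member past the threshold was named with all its values, and in each class the largest change that did not pass. From each pathway list up to 4 genes past the threshold were named by moderated t, otherwise the highest and lowest. Outside this rule, the sensor genes Nr1i2, Nr1i3 and Ahr, the pumps Abcc2, Abcc3, Abcb1a and Abcc6, and Slc35b1 were given besides. Probe accessions matched RefSeq for 48 of 53 probes. The precision of the comparison is limited by there being 3 arrays per group. The labels do not say that same-numbered control and sEV samples are pairs, so the numbers were not taken as pairs. Deviations of same-numbered samples from their group means correlated at 0.02, 0.16 and 0.02, which with 3 arrays per group cannot settle it. All arrays shared 1 slide and 1 scan. Figures were drawn with matplotlib 3.10.9.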

Additional observations from a re-analysis of the deposited data

How the results depend on the processing

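Gstt3 kept its call in all 18 alternatives, Mgst2 in 14, Ugt3a2 in 11, Mgst3 in 8, Ugt3a1 in 7 and Gstm6 in 5. The row-blocked and within-row fits are 2 of these and share 1 estimate, which rests on sEV 1. For each lost or moved value the cause was not tested beyond what the alternative itself changes. The members higher numbered 1 with no filter on dim probes and with slide row as a block, and 1 to 4 when 1 array was left out. They numbered 6 under normexp correction, with a trended and robust variance prior and among genes bright on all arrays, and 5 with array weights. Of the genes tested in these 4 settings, 12.9%, 10.4%, 10.5% and 10.2% were higher. The members lower numbered 1 under median scaling, quantile normalization, the mean of a gene's probes and the authors' value table. They numbered 0 with no filter and with slide row as a block, and 0 to 1 when 1 array was left out. With the replicate number as a block, a pairing that the labels do not state, 4 members were higher (Gstt3, Mgst2, Ugt3a2 and Ugt1a10) and 0 lower. Of all genes, 1057 (5.44%) and 1119 (5.75%) were called there. The GST median of 0.16 was 0.044 under quantile normalization, 0.042 in the value table and 0.082 to 0.19 with 1 array left out. The UGT median of 0.06 was 0.014 to 0.12 with 1 array left out. All genes called higher numbered 1716 of 19447 (8.82%), against 1092 (5.62%) under median scaling. They numbered 312 of 37074 (0.84%) with no filter, 244 (1.25%) blocked by row and 598 to 1449 (3.08% to 7.45%) with 1 array left out. Genes called lower numbered 1578 (8.11%), against 489 (1.32%), 477 (2.45%) and 731 to 1312 (3.76% to 6.75%) in the last 3 of these settings.

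Of 648 values of single members under alternatives, 545 kept direction and side of the threshold, 45 lost the call, 9 gained it and 49 changed sign, all of these for members that did not pass. Under median scaling the changed signs were Gsta4 at -0.020, Gstm1 at -0.0015, Ugt2b1 at -0.050, Ugt2b36 at -0.014 and Ugt2b37 at -0.0065. Under quantile normalization they were Gstm1 -0.190, Gstm3 -0.052, Gstt1 -0.091, Gstz1 -0.062, Mgst1 -0.081, Ugt1a6b -0.037, Ugt2b1 -0.035, Ugt2b36 -0.023 and Ugt2b38 -0.059. In the value table the same members were at -0.190, -0.053, -0.091, -0.062, -0.080, -0.036, -0.036, -0.024 and -0.058. With slide row as a block, and within the row, Mgst1 was at -0.047, Ugt2a3 at 0.077, Ugt2b1 at -0.070 and Ugt2b35 at -0.074. The mean of a gene's probes gave -0.148 for Gsta3 and -0.102 for Gstt2. Ugt2b1 was also at -0.019 under normexp and -0.038 with array weights. With 1 array left out, values spanned 0 for Gsta2 (-0.077 to 0.494), Gsta4 (-0.024 to 0.097), Gstm1 (-0.0058 to 0.144), Gstm5 (-0.100 to 0.0072), Gsto1 (-0.064 to 0.179), Ugt2b1 (-0.073 to 0.091), Ugt2b34 (-0.151 to 0.0047), Ugt2b36 (-0.0013 to 0.093) and Ugt2b37 (-0.027 to 0.107).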
